A study of Mus musculus with 15 samples.

Results

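The genes described here are 10 mouse genes that make, carry and activate polyunsaturated fatty acids, the class to which docosahexaenoic acid (DHA) belongs. They were taken as a list of symbols with no cut on a measured value, though earlier results of these data were known. The list held the desaturases Fads1 and Fads2, the elongases Elovl2 and Elovl5, and the transporter Mfsd2a. It also held the fatty acid binding proteins Fabp3, Fabp5 and Fabp7, and the acyl-CoA synthetases Acsl4 and Acsl6. All 10 symbols were found among the 55401 genes of the count tables, and all 10 were among the 19536 genes with enough reads to be tested.

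RNA sequencing was carried out on the hippocampus of 15 mice in 4 groups. WT mice received vehicle (n = 4) or DHA (n = 4), and Tg2576 mice received vehicle (n = 4) or DHA (n = 3). The Tg2576 line is used as a model of the amyloid pathology of Alzheimer's disease: a prion promoter drives its transgene, which encodes mutant (Swedish) human APP. The labels give the genotypes as Tg2576 +/+ and Tg2576 -/-, and the study's methods describe the second as transgene-negative littermates. All mice were females aged 18 to 20 months, and all were dosed into the stomach every day for 5 weeks. They received sesame oil as the vehicle, or a concentrated DHA-triglyceride product at 450 mg/kg diluted in the same oil. Both arms therefore received sesame oil, and no untreated mice entered the comparison. As the tissue was sequenced in bulk, fewer cells of a type and less RNA per cell cannot be told apart.

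Mammals cannot make these fatty acids from nothing: the dietary precursors linoleic and alpha-linolenic acid are desaturated by Fads2, elongated by Elovl5, desaturated again by Fads1 and elongated further by Elovl2. Brain DHA comes largely from the blood, where it travels as lysophosphatidylcholine and enters through Mfsd2a in the endothelium of the blood-brain barrier. Inside cells the acids are chaperoned by Fabp proteins and joined to coenzyme A by Acsl enzymes before they are built into membrane phospholipids.

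The promoters of genes whose levels are described in most detail are shown first, since desaturases and elongases are textbook targets of sterol and nuclear receptor control. RefSeq (GRCm38.p6) gave a promoter window, from 250 bases before to 50 bases after the start site, for 8 of the 10 genes, and none is shown for Fads1 and Fabp5. Capitals mark every match on either strand to 3 short motifs. These were the E-box, with the letters CACGTG, the CCAAT box, named for its own letters, and the GC box, searched as GGGCGG. They do not overlap in the windows printed.

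Fads2, chr19:10101454-10101753, minus strand: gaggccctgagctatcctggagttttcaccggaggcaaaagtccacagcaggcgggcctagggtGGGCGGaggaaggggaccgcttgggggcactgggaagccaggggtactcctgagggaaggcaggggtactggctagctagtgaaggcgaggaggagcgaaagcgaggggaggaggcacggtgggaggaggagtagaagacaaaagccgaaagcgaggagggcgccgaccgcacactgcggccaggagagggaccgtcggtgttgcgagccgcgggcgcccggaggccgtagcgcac
Elovl5, chr9:77917115-77917414, plus strand: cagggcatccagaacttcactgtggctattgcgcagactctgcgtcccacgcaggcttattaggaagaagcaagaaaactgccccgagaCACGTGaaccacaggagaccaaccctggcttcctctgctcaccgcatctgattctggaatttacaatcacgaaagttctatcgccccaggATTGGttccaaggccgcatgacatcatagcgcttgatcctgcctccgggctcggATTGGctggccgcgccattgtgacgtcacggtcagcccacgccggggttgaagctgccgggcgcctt
Mfsd2a, chr4:122961139-122961438, minus strand: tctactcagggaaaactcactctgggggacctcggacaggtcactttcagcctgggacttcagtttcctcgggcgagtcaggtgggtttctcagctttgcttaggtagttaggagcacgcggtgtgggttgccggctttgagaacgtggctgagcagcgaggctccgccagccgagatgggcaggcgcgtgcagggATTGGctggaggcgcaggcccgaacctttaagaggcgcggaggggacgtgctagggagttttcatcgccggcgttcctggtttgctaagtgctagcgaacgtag
Fabp7, chr10:57784673-57784972, plus strand: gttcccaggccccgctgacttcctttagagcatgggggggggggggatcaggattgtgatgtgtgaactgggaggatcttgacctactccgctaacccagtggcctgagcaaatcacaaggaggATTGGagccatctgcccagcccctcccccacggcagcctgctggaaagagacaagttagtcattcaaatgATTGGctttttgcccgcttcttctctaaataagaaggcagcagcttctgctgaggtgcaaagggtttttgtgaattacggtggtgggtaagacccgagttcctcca

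Elovl5 held 1 E-box and 2 CCAAT boxes, Fabp7 held 2 CCAAT boxes, Mfsd2a held 1 CCAAT box and Fads2 held 1 GC box. Over all 32851 RefSeq promoter windows of the same length, 7.15% held an E-box, 37.4% a CCAAT box and 35.7% a GC box, so only the E-box of Elovl5 is an uncommon match. A sterol regulatory element (TCACNCCAC, in 1.24% of windows) was searched on both strands, as were the nuclear receptor repeats AGGTCANAGGTCA (0.0396%) and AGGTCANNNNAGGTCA (0.0152%). None of these 3 letter strings was in a window of the 8 genes, which says only that these letters are not in these windows.

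The genome positions below follow GENCODE vM25 on GRCm38. Fads2 (chr19:10062765-10101746, minus strand) and Fads1 (chr19:10182888-10196877, plus strand) lie on the same chromosome with 81.1 kb between them, and Fads3, a related desaturase gene, ends 2.7 kb from Fads2. Elovl2 lies at chr13:41182381-41220405, Elovl5 at chr9:77917364-77984519, Mfsd2a at chr4:122946850-122961188, Fabp3 at chr4:130308595-130315463 and Fabp5 at chr3:10012548-10016607. Fabp7 lies at chr10:57784881-57788450, Acsl4 at chrX:142317993-142390535 and Acsl6 at chr11:54303798-54364756.

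The libraries held between 17372864 and 46596489 counted reads, with a median of 25645977. App, whose mouse gene also takes up reads of the human transgene, was at 2076 to 2787 CPM (reads of the gene scaled to a common library size) in the 7 Tg2576 mice and at 1572 to 1787 CPM in the 8 WT mice, so every mouse sat on the side its label gives. Tg2576 vehicle mouse 1 stood apart from the others. It had the fewest reads, and its log2 CPM values deviated from its group mean by a root mean square of 0.488 over all tested genes, against 0.309 to 0.435 in the other 14 mice. General neuron markers were present in every mouse, the 10 of them summing to between 9435 and 12479 CPM, but they do not mark the hippocampus among brain regions. The summed level of 8 choroid plexus markers ran from 62.9 to 5869 CPM between mice, with none of the 8 markers at 0 reads in any mouse, and was 3133 to 5180 CPM in all 3 Tg2576 DHA mice.

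The desaturases were the most abundant of the 10 genes per exon length. On the scale of TMM-scaled CPM per kb of exon, Fads2 averaged 61.9 ± 4.23 (SD, n = 15 mice), and Fads1 50.3 ± 3.78, while Fabp3 ran from 39.8 to 63.3 around a mean just below that of Fads1. Fads2 was above Fads1 in all 15 mice, whereas Fads1 was above Fabp3 in 8 of 15, so the latter pair could not be ordered. Fads2 was higher than 96.5% of all tested genes on this scale. The scale divides by all annotated exon bases of a gene, 3295 for Fads2 and 4812 for Fads1, whichever transcript is expressed. In CPM before that division Fads1 was the higher, with group means of 226 to 258 against 194 to 222 for Fads2.

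On this scale a middle tier followed at a clear distance, as the lowest Fabp3 value, 39.8, was above the highest Fabp5 value, 26.6 CPM per kb. That gap rests on the annotated exon lengths, 823 bases for Fabp3 and 3567 for Fabp5. In CPM before the division Fabp5 was the higher, with group means of 63.2 to 75.1 against 37.2 to 43.3 for Fabp3. Fabp5 averaged 19.3 ± 3.71, Acsl6 19.1 ± 1.53, Elovl5 17.6 ± 2.21 and Fabp7 14.2 ± 4.85 CPM per kb (SD, n = 15). Neighbours within this tier overlapped, and Fabp5 was above Acsl6 in only 7 of 15 mice. Acsl4 (10.9 ± 1.61), Mfsd2a (8.04 ± 2.97) and Elovl2 (3.62 ± 0.525) closed the order, with Mfsd2a above Elovl2 in all 15 mice and no overlap between their ranges.

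**Figure D1:**
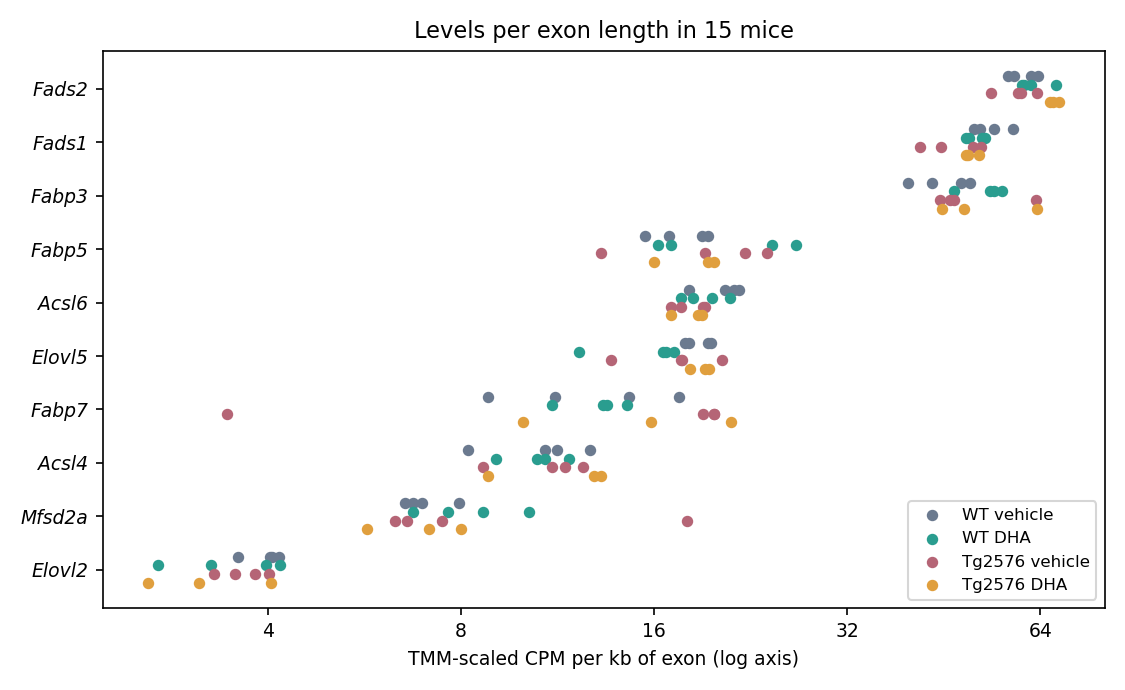
TMM-scaled CPM per kb of exon (log axis) of the 10 genes in each of 15 mice, with points coloured by group. Fads2, Fads1 and Fabp3 lie above all other genes, and Elovl2 has the lowest mean, 3.62, with Fabp7 in Tg2576 vehicle mouse 1 (3.45) the only point of another gene within its range.

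Within each pair of related enzymes the difference in level per exon length had the same direction in every mouse. The Fads1 to Fads2 ratio of CPM per kb had a median of 0.818 and stayed between 0.729 and 0.938. Elovl5, which elongates the shorter intermediates, was a median 4.72 times as high as Elovl2, which acts on the longer ones, with a range of 3.42 to 7.0. Acsl6, an acyl-CoA synthetase known for its part in brain DHA enrichment, was a median 1.75 times as high as Acsl4 (1.44 to 2.22), an enzyme known for its preference for arachidonic acid. Among the binding proteins Fabp3, the heart type also found in neurons, was a median 3.49 times as high as Fabp7, the radial glia and astrocyte type, but this ratio ran from 2.34 to 12.9. Fabp5, the epidermal type also known as a DHA carrier of the brain endothelium, was above Fabp7 in some mice and below it in others, with a ratio of 0.89 to 3.83.

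The spread between mice differed widely between genes, and the intervals below are narrow for the desaturases and wide for Mfsd2a and Fabp7. The biological coefficient of variation within groups was 8.49% for Fads2, 9.03% for Fads1 and 9.32% for Acsl6, and for Fads2 only 1.52% of tested genes had a lower one. It was 12.2% for Elovl5 and 13.2% for Fabp3, and it reached 26.8% for Mfsd2a and 40.5% for Fabp7.

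**Figure D2:**
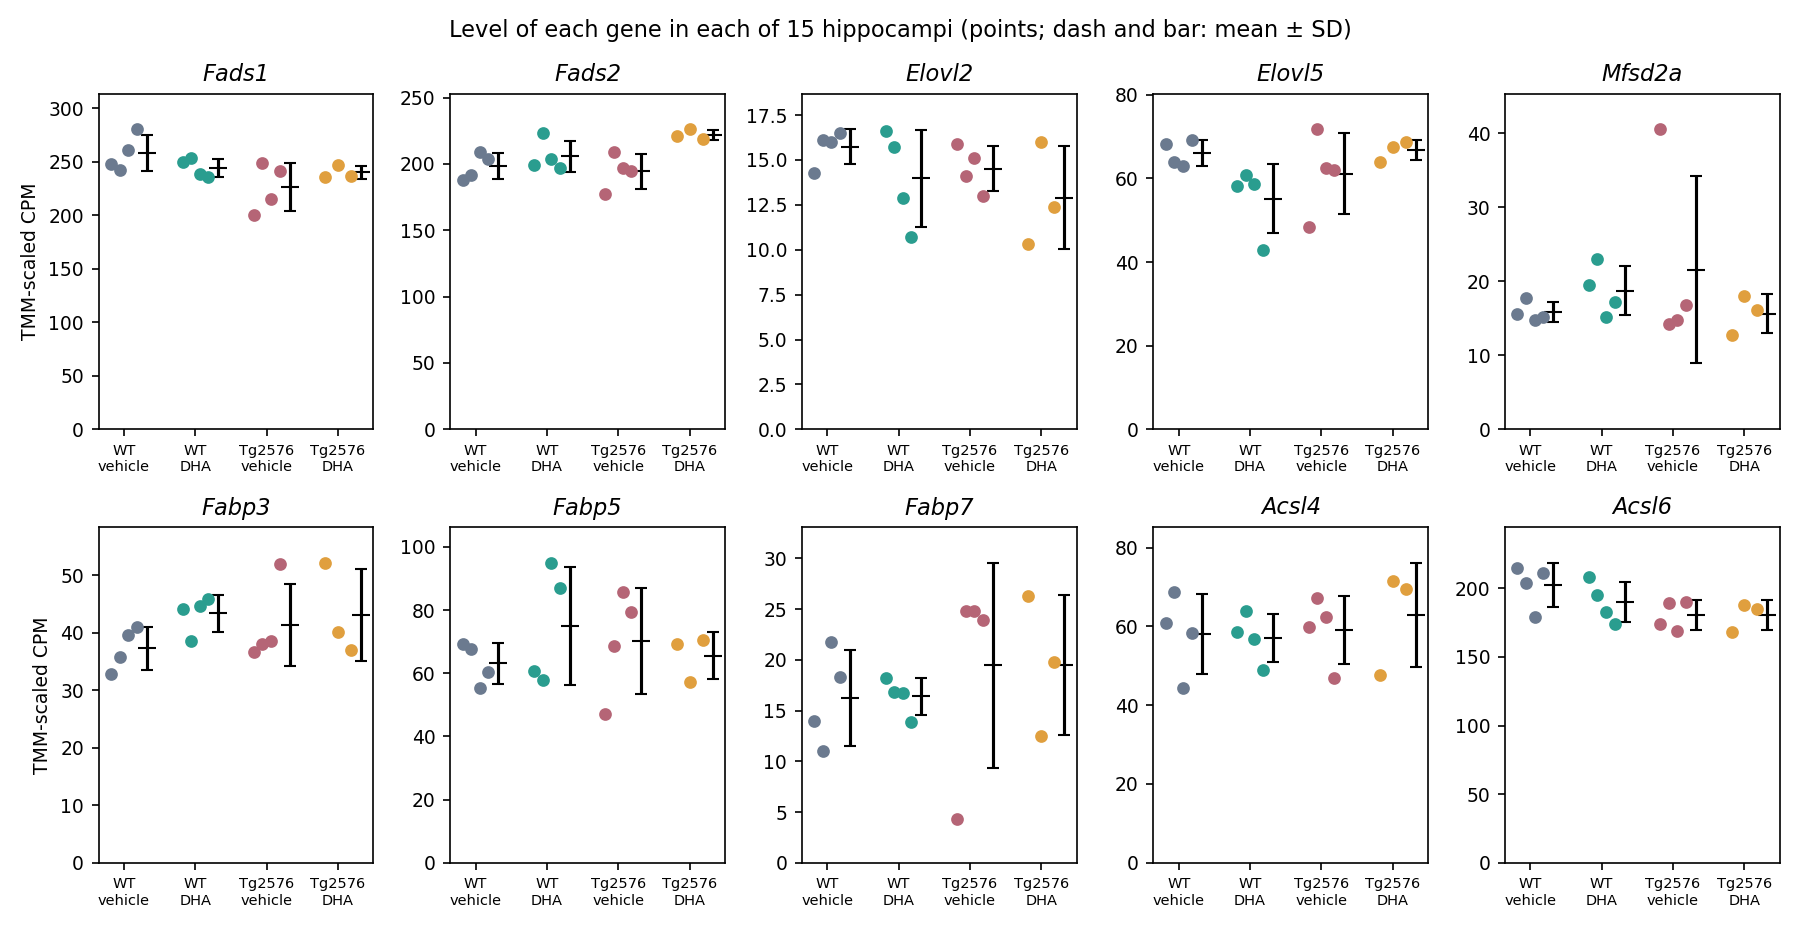
TMM-scaled CPM of each gene in each mouse (points) by group, with the group mean and SD as a dash and bar, each axis starting at 0. Most groups overlap, and Tg2576 vehicle mouse 1 is seen alone at 40.5 CPM for Mfsd2a and 4.31 CPM for Fabp7.

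The first question was whether DHA feeding was met by a change in these genes in WT mice. None of the 10 genes passed the study's threshold, an unadjusted p under 0.01 in edgeR's quasi-likelihood test, which 1.38% of all tested genes passed. At an unadjusted p under 0.05, passed by 5.92% of all tested genes, 1 of 10 was found, Elovl5. The median log2 fold change of the 10 genes was -0.0074, beside -0.013 over all tested genes, with 5 positive and 5 negative values. Among all tested genes 0 had a Benjamini-Hochberg adjusted p under 0.05 in edgeR in this comparison.

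Elovl5 was at 68.2, 63.9, 63.0 and 69.2 CPM in the WT vehicle mice. In the WT DHA mice it was at 58.2, 60.7, 58.7 and 42.8 CPM. All 4 DHA-fed mice lay below all 4 vehicle mice, a separation that 5.02% of all tested genes showed in one direction or the other in this comparison. The log2 fold change of Elovl5 was -0.26 (SE 0.116, 95% interval -0.51 to -0.02, unadjusted p = 0.0373, adjusted p = 0.834). The exact two-sided permutation test gave p = 0.0286, the smallest that 4 against 4 mice allow. WT DHA mouse 4, the lowest at 42.8 CPM, carried much of the value: without it the log2 fold change was -0.16 and the unadjusted p = 0.154 in edgeR.

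The desaturases overlapped between WT vehicle and WT DHA mice. Fads1 was at 248, 242, 261 and 280 CPM under vehicle and at 250, 253, 238 and 236 CPM under DHA. Fads2 was at 188, 192, 209 and 204 CPM under vehicle and at 199, 223, 204 and 197 CPM under DHA. The 95% intervals of the log2 fold change, -0.24 to 0.09 for Fads1 and -0.10 to 0.21 for Fads2, leave room only for small differences in either direction.

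Of the genes for uptake, binding and activation, none separated the WT groups. Mfsd2a was at 15.6, 17.8, 14.7 and 15.2 CPM under vehicle and at 19.5, 23.0, 15.2 and 17.2 CPM under DHA (log2 fold change 0.24, SE 0.270, unadjusted p = 0.384, adjusted p = 0.915). Fabp3 was at 32.8, 35.7, 39.6 and 40.9 CPM under vehicle and at 44.1, 38.6, 44.7 and 45.9 CPM under DHA (0.22, SE 0.126, unadjusted p = 0.102, adjusted p = 0.863). For Fabp3 3 of the 4 DHA-fed mice lay above every vehicle mouse. Fabp5, Fabp7, Acsl4, Acsl6 and Elovl2 had log2 fold changes between -0.17 and 0.25, and edgeR's p-values ran from 0.181 for Fabp5 to 0.986 for Fabp7. Several of these values rested on single mice. Fabp5, the highest at 0.25, was at 0.11 without WT DHA mouse 3, Elovl2, the lowest at -0.17, was at -0.057 without WT DHA mouse 4, and Mfsd2a was at 0.13 without WT DHA mouse 2.

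In Tg2576 mice the same question again found none of the 10 genes past the threshold, which 0.353% of all tested genes passed here. At an unadjusted p under 0.05 (3.16% of all tested genes) 1 of 10 was found, Fads2, the desaturase that starts the pathway. The median log2 fold change of the 10 genes was 0.029, beside -0.0039 over all tested genes.

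Fads2 was at 177, 209, 197 and 195 CPM in the Tg2576 vehicle mice. In the Tg2576 DHA mice it was at 221, 226 and 219 CPM. The 3 DHA-fed mice lay above all 4 vehicle mice, as was the case, in either direction, for 3.21% of all tested genes. The log2 fold change of Fads2 was 0.19 (SE 0.0783, 95% interval 0.03 to 0.36, unadjusted p = 0.0254, adjusted p = 0.999). With 4 against 3 mice the exact permutation test cannot go below 0.0571, and it gave that value. Without Tg2576 vehicle mouse 1, the lowest at 177 CPM, the log2 fold change was 0.15 (unadjusted p = 0.0699 in edgeR). Without Tg2576 vehicle mouse 2, the highest of its group at 209 CPM, it was 0.23 (unadjusted p = 0.0129 in edgeR). The 8 choroid plexus markers summed to 3133 to 5180 CPM in these DHA-fed mice and 143 to 3191 CPM in the vehicle mice, with 0 past the threshold. Of 10 oligodendrocyte markers 1 passed it, Mobp (log2 fold change -0.46, unadjusted p = 0.00293, adjusted p = 0.999 in edgeR). These 10 summed to 5596 to 7351 CPM under DHA and 5893 to 8578 CPM under vehicle, with a median log2 fold change of -0.12. The part of these markers in the Fads2 value was not tested.

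Fads1, the second desaturase, was at 200, 249, 215 and 241 CPM under vehicle and at 236, 247 and 237 CPM under DHA in Tg2576 mice. Elovl5 was at 48.3, 71.7, 62.4 and 62.0 CPM under vehicle and at 64.0, 67.5 and 68.6 CPM under DHA. Both genes overlapped between the groups, and among the Tg2576 mice both had their lowest value in vehicle mouse 1. The log2 fold change was 0.08 for Fads1 and 0.12 for Elovl5 over all mice, and 0.028 and 0.029 without that mouse. Elovl2 was at 15.9, 14.1, 15.1 and 13 CPM under vehicle and at 10.3, 16 and 12.4 CPM under DHA (log2 fold change -0.17, SE 0.162). That value was -0.026 without DHA mouse 1 and -0.35 without DHA mouse 2.

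The comparison of Mfsd2a and Fabp7 in Tg2576 mice turned on vehicle mouse 1. Mfsd2a was at 40.5, 14.2, 14.8 and 16.8 CPM under vehicle and at 12.8, 18 and 16.1 CPM under DHA. Its log2 fold change was -0.45 (SE 0.294) with that mouse and 0.036 without it, so the sign of the Mfsd2a difference rested on 1 library. Fabp7 was at 4.31, 24.8, 24.8 and 23.9 CPM under vehicle and at 26.3, 12.5 and 19.8 CPM under DHA. Its log2 fold change was -0.0023 with a 95% interval of -0.96 to 0.96, and -0.33 without that mouse (unadjusted p = 0.194 in edgeR). Fabp3, Fabp5, Acsl4 and Acsl6 overlapped between the groups and had log2 fold changes between -0.10 and 0.09. The lowest, for Fabp5, was -0.25 without vehicle mouse 1 and 0.011 without vehicle mouse 3. Fabp5 ran from 47.2 to 85.8 CPM under vehicle and from 57.1 to 70.5 CPM under DHA, and Acsl4 from 46.8 to 67.2 and from 47.7 to 71.5 CPM.

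Averaged over both genotypes, the effect of DHA passed the threshold in none of the 10 genes (0.87% of all tested genes) and p under 0.05 in 1, Fads2 (3.78% of all tested genes). The mean log2 fold change of Fads2 was 0.12 (SE 0.0534, 95% interval 0.01 to 0.24, unadjusted p = 0.0343). Fads1, 81.1 kb away on the same chromosome, had a mean of 0.0021 (95% interval -0.12 to 0.12). That of Fads3, which ends 2.7 kb from Fads2, was 0.16 (SE 0.0723, unadjusted p = 0.0402 in edgeR) and did not pass the threshold. For 8 of the 10 genes the 95% interval of this mean effect lay within 0.5 of 0 on the log2 scale, the exceptions being Mfsd2a (-0.53 to 0.32) and Fabp7 (-0.65 to 0.66).

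**Figure D3:**
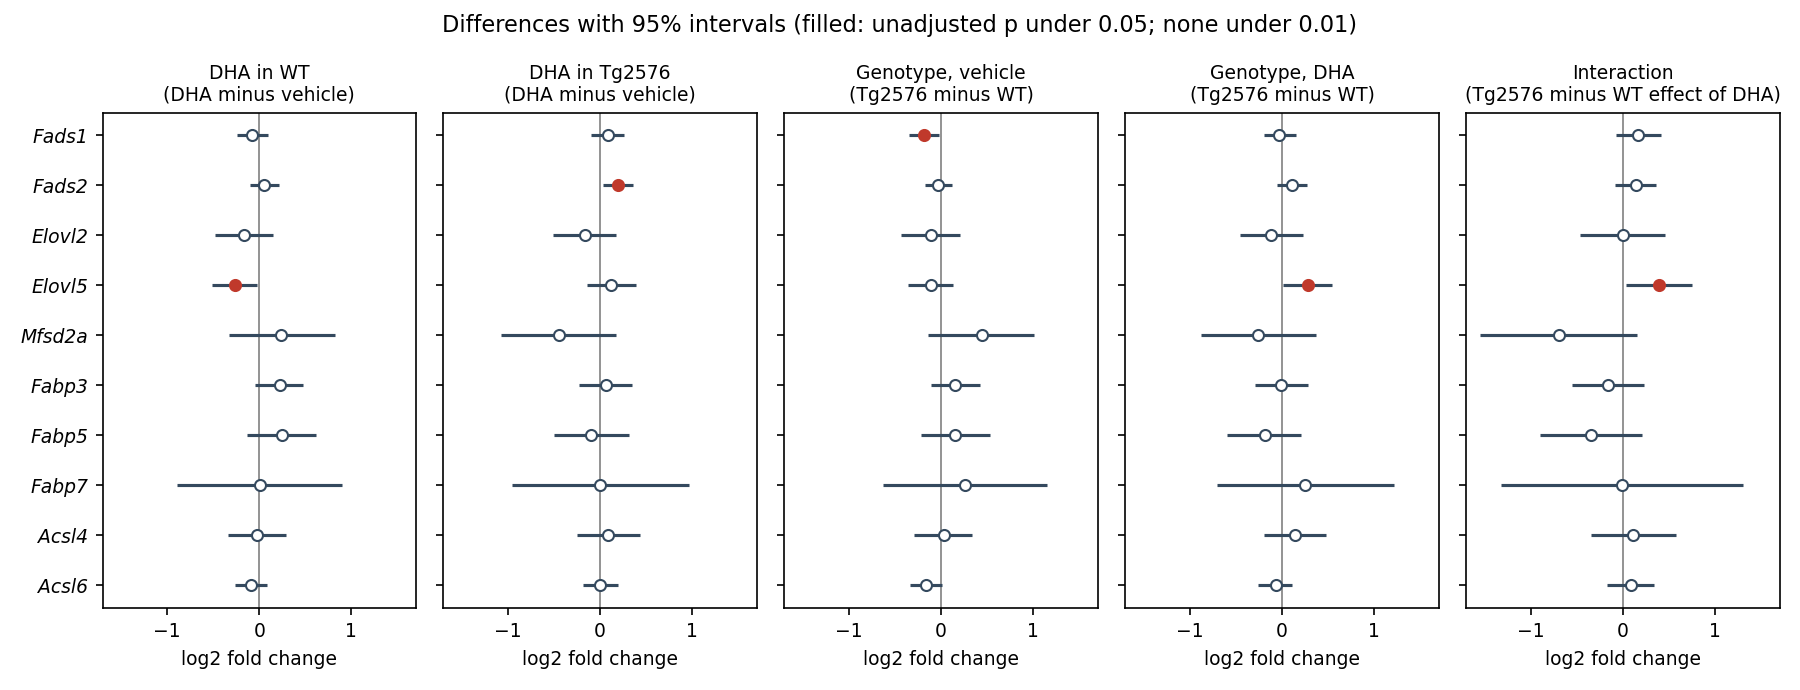
Log2 fold change (points) and 95% interval (lines) of the 10 genes in 5 comparisons, on 1 shared axis, with filled points at an unadjusted p under 0.05. Each panel holds 1 filled point and none passes 0.01, and the widest intervals belong to Fabp7 and Mfsd2a.

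The genotypes were compared next, under vehicle. None of the 10 genes passed the threshold, which 3.09% of all tested genes passed, and none separated the groups, as 5.16% of all tested genes did. At an unadjusted p under 0.05 (10.7% of all tested genes) 1 of 10 was found, Fads1. The values of Fads1 given above ran from 242 to 280 CPM in WT and from 200 to 249 CPM in Tg2576 mice, and the groups overlapped. Its log2 fold change was -0.19 (SE 0.0788, 95% interval -0.35 to -0.02, unadjusted p = 0.0296, adjusted p = 0.399), and the exact permutation test gave p = 0.114. Without WT vehicle mouse 4, the highest at 280 CPM, the log2 fold change was -0.15 (unadjusted p = 0.103 in edgeR). Without Tg2576 vehicle mouse 2, the highest of its group at 249 CPM, it was -0.24 (unadjusted p = 0.0105 in edgeR). Among cell type markers, 1 of 10 for astrocytes passed the threshold. This was Gfap, higher in these Tg2576 mice by 1.02 on the log2 scale (unadjusted p = 3.63e-05, adjusted p = 0.0766 in edgeR). The median log2 fold change of the 10 astrocyte markers was 0.072. They summed to 4918 to 6080 CPM in WT and 5084 to 6086 CPM in Tg2576 mice. Of 10 neuron markers 2 were lower, Nefm (-0.26, unadjusted p = 0.00306, adjusted p = 0.224) and Gad1 (-0.28, unadjusted p = 0.00410, adjusted p = 0.261), and the 10 summed to 10518 to 12115 CPM in WT and 10074 to 10965 CPM in Tg2576 mice. None of 10 microglia markers passed the threshold, with sums of 369 to 474 CPM in WT and 393 to 618 CPM in Tg2576 mice, and neither did any of 8 markers of oligodendrocyte precursors, whose median log2 fold change was -0.23. Of the other lists, 1 of 10 endothelium markers and 1 of 8 neural stem cell markers were higher. The part of these markers in the Fads1 value was not tested.

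Acsl6 came next by p-value in this comparison. It was at 215, 204, 179 and 211 CPM in WT vehicle mice and at 174, 189, 169 and 190 CPM in Tg2576 vehicle mice, with overlap (log2 fold change -0.16, SE 0.0824, unadjusted p = 0.0630, adjusted p = 0.493). Mfsd2a had the highest log2 fold change of the 10 genes, 0.44 (SE 0.270), and it was -0.051 without Tg2576 vehicle mouse 1. For Fabp7, at 14, 11, 21.8 and 18.3 CPM in the WT vehicle mice, the same mouse acted the other way. Its log2 fold change was 0.26 (unadjusted p = 0.537) over all mice and 0.59 (unadjusted p = 0.0192 in edgeR) without that mouse. That mouse stood out by its own Fabp7 value, 4.31 CPM, so the value without it describes its weight and is not a test of genotype.

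Under DHA the genotypes differed in none of the 10 genes at the threshold (1.75% of all tested genes) and in 1 at p under 0.05 (6.86% of all tested genes). That gene was Elovl5, at 64.0, 67.5 and 68.6 CPM in Tg2576 DHA mice against 58.2, 60.7, 58.7 and 42.8 CPM in WT DHA mice. The groups did not overlap, as was so for 8.56% of all tested genes. The log2 fold change of Elovl5 was 0.28 (SE 0.125, 95% interval 0.01 to 0.54, unadjusted p = 0.0412, adjusted p = 0.709), and the exact permutation test gave p = 0.0571, the smallest possible. This comparison shares the WT DHA mice with that of DHA in WT mice, and without WT DHA mouse 4 the log2 fold change was 0.17 (unadjusted p = 0.147 in edgeR). Markers of other cell types moved in the same comparison. The 10 microglia markers summed to 331 to 428 CPM in WT DHA and 424 to 628 CPM in Tg2576 DHA mice, with 4 of 10 past the threshold, all higher in Tg2576 mice, and a median log2 fold change of 0.50. For astrocytes 1 of 10 markers passed the threshold, Gfap, higher by 1.01 on the log2 scale (unadjusted p = 7.77e-05, adjusted p = 0.253 in edgeR). The median log2 fold change of the 10 astrocyte markers was 0.0455. Their sums overlapped, at 4969 to 5227 CPM in WT DHA and 4996 to 6530 CPM in Tg2576 DHA mice. The 8 choroid plexus markers summed to 62.9 to 5869 CPM in WT DHA and 3133 to 5180 CPM in Tg2576 DHA mice. Of 10 neuron markers 1 was lower. The part of these markers in the Elovl5 value was not tested.

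Averaged over both treatments, the genotype difference passed the threshold in none of the 10 genes (3.85% of all tested genes) and p under 0.05 in none (11.6% of all tested genes). The lowest unadjusted p was 0.0660 (adjusted p = 0.476), for Acsl6.

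The last comparison asked whether the response to DHA itself differed between the genotypes. None of the 10 genes passed the threshold for this interaction (0.829% of all tested genes), and Elovl5 passed p under 0.05 (5.12% of all tested genes). The interaction of Elovl5 was 0.39 on the log2 scale (SE 0.171, 95% interval 0.03 to 0.75, unadjusted p = 0.0363, adjusted p = 0.845), from -0.26 in WT and 0.12 in Tg2576 mice. Without WT DHA mouse 4 it was 0.28 (unadjusted p = 0.0766 in edgeR). The value of 0.12 in Tg2576 mice was 0.029 without Tg2576 vehicle mouse 1, when the interaction was 0.29. It was 0.21 without Tg2576 vehicle mouse 2, when the interaction was 0.47. Mfsd2a had the lowest interaction, -0.70 (SE 0.399, unadjusted p = 0.101, adjusted p = 0.845). It was -0.21 without Tg2576 vehicle mouse 1 and -0.85 without Tg2576 vehicle mouse 2.

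The genes were also compared from mouse to mouse, as log2 CPM with each group's mean removed. Of 45 pairs, 9 had a Benjamini-Hochberg adjusted permutation p under 0.05 for Pearson's r when mice were permuted freely, and 0 when mice were permuted only within their own group. With the group means kept in the values the count was also 0, and without Tg2576 vehicle mouse 1 it was 1. It was 3 without Tg2576 vehicle mouse 2 and 4 without WT vehicle mouse 2 or 4. The pairs below are therefore given as a description of these 15 mice.

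The strongest relation was between Mfsd2a and Fabp7, which ran in opposite directions (r = -0.902, permutation p = 0.000115, adjusted p = 0.00517; rho = -0.732, permutation p = 0.00267, adjusted p = 0.0452). Without the 2 mice farthest from the median of Mfsd2a, r was -0.683 (permutation p = 0.0107). The desaturases Fads1 and Fads2 ran together (r = 0.755, permutation p = 0.00125, adjusted p = 0.0141; rho = 0.725, permutation p = 0.00276, adjusted p = 0.0452). Without the 2 mice farthest in Fads1, Tg2576 vehicle mice 1 and 2, r was 0.538 (permutation p = 0.0596), and without the 2 farthest in Fads2 it was 0.674. Fabp3 and Acsl4 ran in opposite directions (r = -0.806, permutation p = 0.000405, adjusted p = 0.00911; rho = -0.725, permutation p = 0.00301, adjusted p = 0.0452), with r = -0.637 (permutation p = 0.0149) without the 2 mice farthest in Fabp3.

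The other 6 pairs past the adjusted threshold for r did not pass it for rho. They were Mfsd2a with Fabp5 (r = -0.761), Fads1 with Elovl5 (0.669), Fads2 with Elovl5 (0.660), Fads2 with Fabp7 (0.659), Fads1 with Fabp7 (0.650) and Elovl2 with Fabp5 (-0.655). Of all 45 pairs 28 had a positive r and 17 a negative one.

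**Figure D4:**
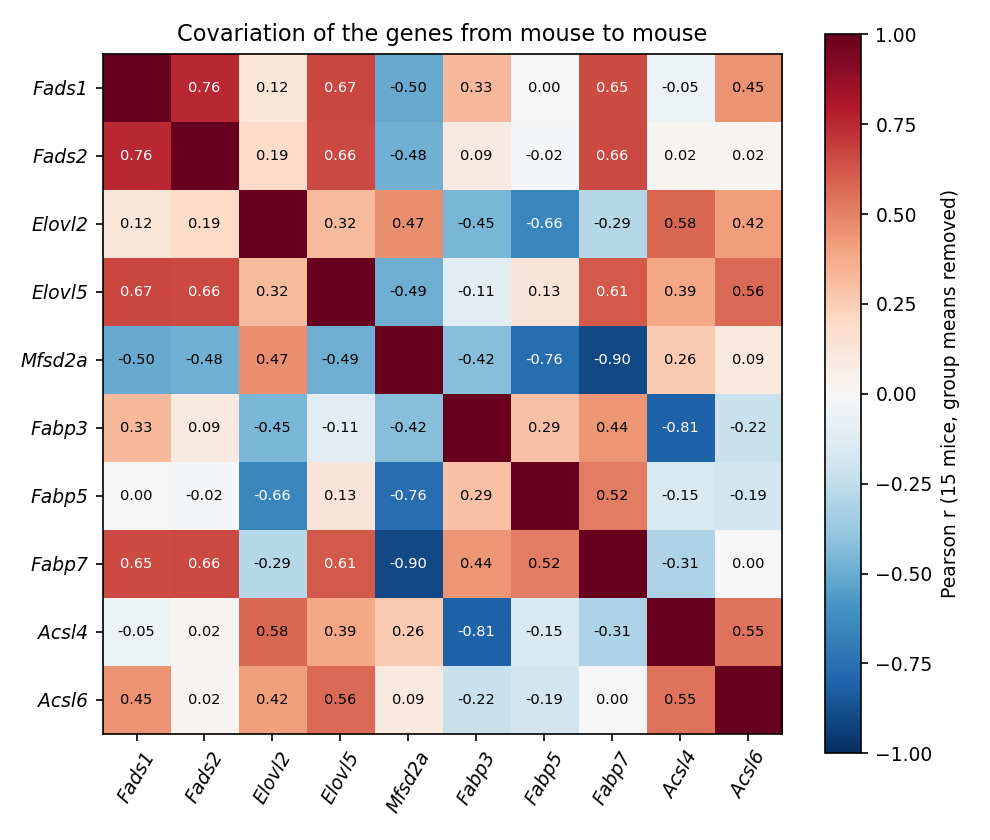
Pearson's r of each pair of the 10 genes over 15 mice, from log2 CPM with group means removed, in colour from -1 to 1 with the value in each cell. Fads1, Fads2, Elovl5 and Fabp7 are positive with each other, and Mfsd2a with Fabp7 is the lowest cell at -0.90.

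For 4 of the genes the 3 tested genes with the highest r over the 15 mice were listed, among genes with a mean of at least 5 CPM. They were chosen for that r, which is therefore a description. Those most like Mfsd2a were Fkbp5 (r = 0.953), a co-chaperone known to be induced by glucocorticoids, Ube3b (0.946) and Glyr1 (0.942). All 3 had their highest level in Tg2576 vehicle mouse 1. Fkbp5 was at 143 CPM in that mouse and at 52.5 to 80.8 CPM in the other 14. Without the 2 mice farthest from the median of Mfsd2a, r between Mfsd2a and Fkbp5 was 0.824.

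Those most like Fabp7 were Mfge8 (r = 0.949), a secreted glycoprotein of astrocytes, Hacd3 (0.944), a dehydratase of very long-chain fatty acid elongation, and Qdpr (0.938), which regenerates tetrahydrobiopterin. All 3 had their lowest level in Tg2576 vehicle mouse 1, where Mfge8 was at 103 CPM beside 154 to 228 CPM in the other 14 mice. Those most like Fads1 were Rorb (0.844), Mtif3 (0.836) and Tspyl5 (0.815). Those most like Acsl6 were Pign (0.924), Ptgs2 (0.892), the inducible cyclooxygenase that acts on arachidonic acid, and Rps6ka3 (0.885).

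**Figure D5:**
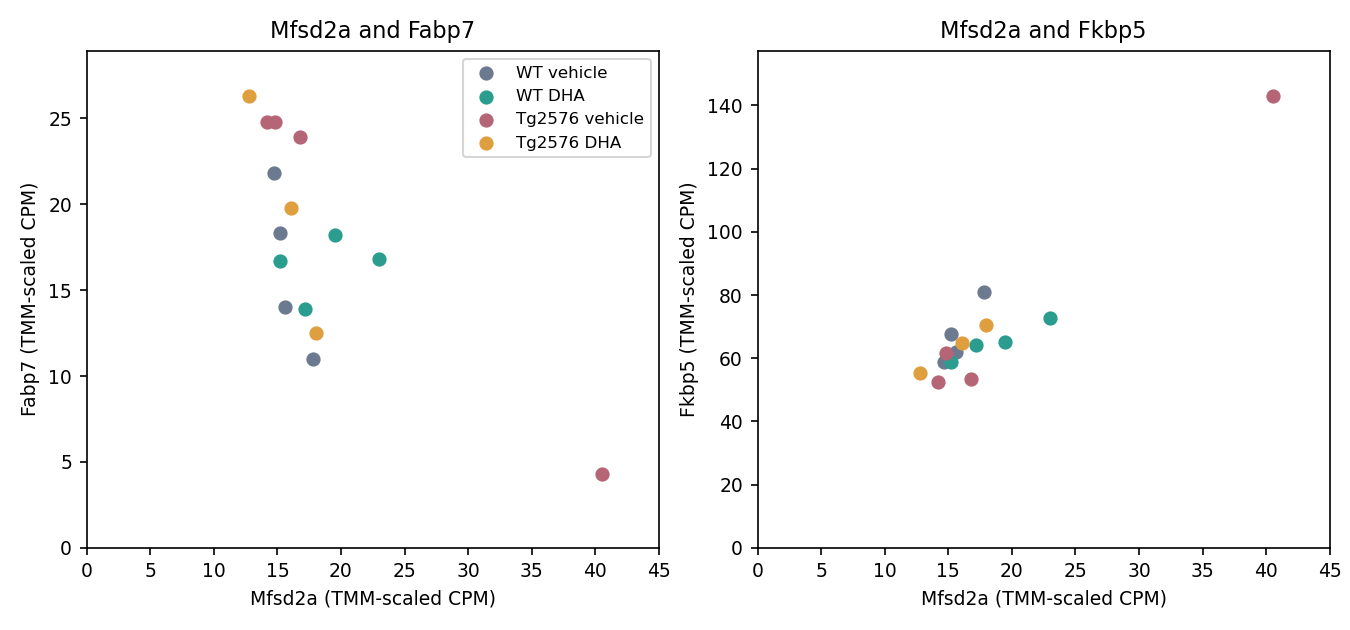
Fabp7 (left) and Fkbp5 (right) against Mfsd2a in TMM-scaled CPM, with 1 point per mouse coloured by group and all axes starting at 0. Tg2576 vehicle mouse 1 is the point at 40.5 CPM of Mfsd2a, with Fabp7 at 4.31 and Fkbp5 at 143 CPM, apart from the other 14 mice.

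The wider pathway was read from 75 further genes for fatty acid synthesis, uptake, activation, phospholipid incorporation and release, and their regulators, of which 69 could be tested. None of the 69 passed the threshold for DHA in WT mice, for DHA in Tg2576 mice, for the mean effect of DHA or for the interaction. Between the genotypes 3 of 69 passed under vehicle, a share of 4.35% that was near the 3.09% of all tested genes. Under DHA 5 of 69 passed (7.25%, beside 1.75% of all tested genes). Averaged over both treatments 5 of 69 passed (7.25%, beside 3.85% of all tested genes), 2 higher and 3 lower in Tg2576 mice.

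Insig1 was among the genes that were higher in Tg2576 mice. This gene, whose product retains the SREBP complex in the endoplasmic reticulum, was at 43.0 to 56.5 CPM in WT vehicle, 46.8 to 66.5 in WT DHA, 66.6 to 86.7 in Tg2576 vehicle and 68.7 to 82.5 in Tg2576 DHA mice. The highest WT value, 66.5 CPM, was thus next to the lowest Tg2576 value, 66.6 CPM. The mean log2 fold change was 0.46 (SE 0.0915, unadjusted p = 9.51e-05, adjusted p = 0.0492). Among all tested genes 40 had an adjusted p under 0.05 in edgeR for this mean genotype difference.

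The 3 that were lower on average were Fads6 (log2 fold change -0.23, unadjusted p = 0.00287, adjusted p = 0.173), a desaturase-like gene, Acsbg1 (-0.22, unadjusted p = 0.00193, adjusted p = 0.154), an acyl-CoA synthetase of the brain, and Slc27a1 (-0.19, unadjusted p = 0.00981, adjusted p = 0.258), a fatty acid transporter. Slc27a1 lost the call in 17 of 24 alternative settings. Its difference was -0.05 under vehicle (unadjusted p = 0.54 in edgeR) and -0.32 under DHA (unadjusted p = 0.00363, adjusted p = 0.536). That of Acsbg1 was -0.15 under vehicle (unadjusted p = 0.0746) and -0.28 under DHA (unadjusted p = 0.00502, adjusted p = 0.548). Under vehicle Fads6 was at 38.9 to 45.9 CPM in WT and 29.1 to 35.2 CPM in Tg2576 mice (log2 fold change -0.39, SE 0.0887, unadjusted p = 0.000417, adjusted p = 0.162). The Fads6 difference under DHA was -0.07 (unadjusted p = 0.489). Its interaction, 0.32, did not pass the threshold (unadjusted p = 0.0256, adjusted p = 0.845). Under DHA Pla2g6, a phospholipase that releases fatty acids from membranes, was lower in Tg2576 mice (-0.37, SE 0.114, unadjusted p = 0.00470, adjusted p = 0.548). Its difference under vehicle was -0.04, and the interaction, -0.33, did not pass the threshold (unadjusted p = 0.0457, adjusted p = 0.845). Both the 5 calls under DHA and their members depended on single mice, as the count fell to 0 without Tg2576 DHA mouse 2 or mouse 3, to 2 without WT DHA mouse 1 and to 1 without WT DHA mouse 4. Over all tested genes the calls also fell, from 342 to 235, 222, 245 and 190 in the same order of mice. The 3 calls under vehicle became 5 without Tg2576 vehicle mouse 1, Tg2576 vehicle mouse 2 or WT vehicle mouse 3. Calls over all tested genes rose from 604 to 965, 755 and 747 in these runs. The 5 calls of the mean difference became 3 without Tg2576 DHA mouse 2 and 9 without Tg2576 vehicle mouse 1, while those over all tested genes went from 753 to 601 and 1008.

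Each of the 5 lists of further pathway genes had its own most abundant gene per exon length. These were Scd2, the stearoyl-CoA desaturase of the brain, for synthesis (275 CPM per kb), Acot7, a brain acyl-CoA thioesterase, for activation (141), Agpat1 for phospholipid incorporation and release (54.0), Srebf2 for the regulators (43.7) and Got2 for uptake (39.8). None of these 5 passed the threshold in any of the 7 comparisons.

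Exons of 2 of the 10 genes overlap other genes. Fabp3 shares 81 exon bases with Zcchc17 and 80 with Gm10570 on the opposite strand, and Acsl6 shares 202 with Gm12224. The counting used no strand, and by its defaults reads that fall on exons of more than 1 gene were left out, so these parts add nothing to the counts. The related copies Fabp3-ps1 and Fabp5l2 held 10 to 36 and 0 to 8 reads, beside at least 646 reads of Fabp3 and 831 of Fabp5 in each mouse.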

How the data were processed

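Libraries were made from hippocampal RNA of 15 mice, grouped by the genotype and treatment that GEO's labels give. The labels and the study's methods name different library kits. The authors deposited raw read counts per gene, made per the file headers with featureCounts 1.6.0 over exons of GENCODE vM25 (GRCm38) without a strand option; by that tool's defaults, multi-mapped and ambiguous reads are left out. The submitters' processing notes also name FastQC 0.11.8, STAR 2.6.1c, edgeR and limma. Symbols were matched through a GENCODE table of the same build (55141 of 55401 genes). All 15 libraries came from the same flow cell and lane, so no sequencing batch could be compared. Total counts were 17372864 to 46596489.

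From these counts, edgeR 4.0.16 (R 4.3.3) computed TMM-scaled CPM values and, after filterByExpr (minimum count 10), robust quasi-likelihood tests with 1 coefficient per group over all 15 mice. Calls were made at the study's threshold of 0.01 on the unadjusted p, and Benjamini-Hochberg adjustment ran over all 19536 genes tested. The SE was derived from the F statistic and the unshrunken estimate. Exact permutation tests were two-sided, on log2 CPM with a prior count of 2, in scipy 1.17.1. Correlations used 100000 permutations, or 20000 where 1 mouse was left out, in numpy 2.4.6. Alternatives were DESeq2 1.42.0, limma-voom (limma 3.58.1), other filters and scaling, a replicate block, a gene length offset and leaving out each mouse. Scripts were tested on simulated data. The 10 genes, the pathway and marker lists, and the tests were chosen with earlier results of these data known. Named besides the 10 genes are pathway genes past the threshold (at most 3 per list and comparison), the most abundant gene of each list, the 3 genes most like each of 4 members, Fads3 for its place beside Fads2, and App. The values of 1 pathway gene that this rule would name are not reported here. Intervals cover the spread between these mice only.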

Additional observations from a re-analysis of the deposited data

Results flagged for a closer look

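In each group of 4 mice the highest or lowest CPM value of each of the 10 genes was compared with the rest by Dixon's test at the 95% level. Of 30 such tests 4 marked a mouse, where chance would mark about 1.5. Mfsd2a was at 40.5 CPM in Tg2576 vehicle mouse 1, against 14.2 to 16.8 CPM in the other 3 mice of the group. Fabp7 was at 4.31 CPM in the same mouse, against 23.9 to 24.8 CPM in the others. That mouse also had the fewest counted reads of all 15 libraries, 17372864, and its 76 reads of Fabp7 were the fewest of any mouse. Elovl5 was at 42.8 CPM in WT DHA mouse 4, against 58.2 to 60.7 CPM in the others. Fabp3 was at 51.9 CPM in Tg2576 vehicle mouse 4, against 36.7 to 38.6 CPM in the others. The cause of these values was not tested.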

How the results depend on the processing

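None of the 10 genes passed p under 0.01 in any of the 7 comparisons under any alternative run, the count being 0 in each, also with a replicate block. The replicate numbers did not pair the mice: deviations of same-numbered mice had a median correlation of 0.0117 (-0.244 to 0.213), and 5 of 15 mice correlated best with their own number. Of 1720 alternative values of the log2 fold changes of the 10 genes, 109 changed sign, 6 of them by more than 1 SE, with a lowest p of 0.155. For Fabp7 the difference by DHA in WT mice was -0.0042 without TMM scaling and -0.027 with a gene length offset. In Tg2576 mice it was 0.0062 by DESeq2, 0.10 by limma-voom, 0.00038 with at least 10 counts in every mouse, 0.082 with the replicate block, 0.033 with the length offset and 0.10 with both. The interaction of Fabp7 was 0.061 by limma-voom, 0.0039 without TMM, 0.028 with the block, 0.060 with the length offset and 0.10 with both, and its mean DHA effect was -0.0023 without TMM. For Acsl6 the difference by DHA in Tg2576 mice was 0.0083 with no filter, 0.00048 with at least 10 counts in every mouse and 0.0047 with the block, and its interaction was -0.037 with the length offset and -0.0083 with both. Without TMM the genotype difference was 0.0029 for Fads2 under vehicle, 0.011 for Fads1 and 0.030 for Fabp3 under DHA, and 0.014 for the mean of Fabp5, and the mean DHA effect on Fads1 was -0.0017. Fabp3 under DHA was at 0.053 with the block, 0.0078 with the length offset and 0.038 with both. The interaction of Elovl2 was 0.010 with no filter and 0.0021 with the length offset, and limma-voom gave Mfsd2a a mean DHA effect of 0.00049 and a mean genotype difference of -0.0098. Leaving out each mouse in turn, DHA in WT mice ranged from -0.14 to 0.18 for Fabp7 and from -0.13 to 0.066 for Acsl4. DHA in Tg2576 mice ranged from -0.61 to 0.036 for Mfsd2a, -0.10 to 0.18 for Fabp3, -0.25 to 0.011 for Fabp5, -0.33 to 0.24 for Fabp7, -0.013 to 0.26 for Acsl4 and -0.031 to 0.054 for Acsl6. The genotype difference under vehicle ranged from -0.065 to 0.013 for Fads2, -0.051 to 0.60 for Mfsd2a and -0.081 to 0.14 for Acsl4, and under DHA from -0.30 to 0.029 for Elovl2, -0.16 to 0.090 for Fabp3 and -0.021 to 0.49 for Fabp7. The interaction ranged from -0.20 to 0.13 for Elovl2 and -0.33 to 0.23 for Fabp7. The mean DHA effect ranged from -0.025 to 0.027 for Fads1, -0.18 to 0.14 for Mfsd2a, -0.16 to 0.13 for Fabp7 and -0.020 to 0.12 for Acsl4, and the mean genotype difference from -0.15 to 0.17 for Mfsd2a, -0.0024 to 0.12 for Fabp3 and -0.075 to 0.054 for Fabp5. Some alternatives were chosen after seeing the data: leaving out mice for the correlations and the counts of groups without overlap, permuting within groups, and all alternatives for the other pathway genes. Pairs of the 10 genes past an adjusted p of 0.05 numbered 0 with group means kept, 0 with mice permuted within groups, and 1 to 9 without 1 mouse. Genes without overlap numbered 1 to 2 for DHA in WT, 1 to 2 for DHA in Tg2576, 0 to 2 for genotype under vehicle and 1 to 2 for genotype under DHA without 1 mouse. The share of all tested genes without overlap is not given for these runs, so these counts are a description only. Other pathway genes called numbered 1 for DHA in WT (Vldlr) and 2 for genotype under DHA when only the groups compared were fitted, and 3 for genotype under DHA and 3 for the mean genotype effect without TMM. With only the groups compared, 431 of 18061 and 289 of 18453 tested genes were called, in the same order. Without TMM 343 and 746 of 19536 tested genes were called. Without 1 mouse the other pathway genes called numbered 0 to 1 for DHA in Tg2576, 2 to 5 for genotype under vehicle, 0 to 7 under DHA, 0 to 3 for the interaction, 0 to 1 for the mean DHA effect and 3 to 9 for the mean genotype effect. All tested genes called without 1 mouse numbered, in the same order, 53 to 312, 312 to 965, 190 to 460, 87 to 527, 129 to 236 and 510 to 1008. Where 1 mouse was left out of a group the spread was pooled over all groups. The cause of these changes was not tested.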
